A study of Trichosurus vulpecula with 6 samples.

Results

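The skeletal muscle contractile genes described here are 10 of the 18039 genes that had an assembled transcript in RNA-sequencing of common brushtail possum skin. Levels are given in TPM, an abundance normalised for transcript length and for the size of the library. They were *MYL1*, *TNNT3*, *TNNI2* and *TNNC2*, which encode proteins of fast muscle fibres, *TNNT1*, *TNNI1* and *TNNC1*, which encode their slow fibre counterparts, and *ACTA1*, *CKM* and *MB*, which serve both fibre types. The genes were listed by name and selected on their high TPM in a single library of this series, black replicate 1, so their levels and their black minus grey differences are given as a description without a test. All 10 genes passed the minimum mean of 1 TPM that 15573 genes passed, and 6 of them passed it only through that library.

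The skin came from ear punches of adult female possums, 3 with black fur and 3 with grey fur, and no treatment is given for either group. Each library represents a separate possum, so n = 3 per coat colour, and no possum was sequenced more than once. Libraries were strand-specific, enriched for poly(A) RNA and started from 250 ng of RNA, and transcripts had been assembled in each library separately. Depth, taken as aligned bases in gigabases (Gb), was 7.58, 8.51 and 6.47 Gb in black replicates 1, 2 and 3 and 4.17, 8.37 and 10.2 Gb in grey replicates 1, 2 and 3. The least deep library was therefore grey, and black replicate 1 was neither the deepest nor the shallowest.

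Skeletal muscle contracts when calcium binds troponin C on the thin filament, which lifts the block that troponin I and troponin T, with tropomyosin, hold on the interaction of actin and myosin. Vertebrates carry separate troponin genes for fast and for slow fibres, and a single fibre mostly uses the set that fits its speed. Mammalian ears are moved by thin striated auricular muscles at the base of the ear, and in many mammals a thin sheet of striated muscle also lies beneath the skin.

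All 10 genes were highest in black replicate 1, and 9 of them lay at or near 0 in the other black libraries and in every grey library. *MYL1*, which encodes the essential light chain of fast myosin (chromosome 4, 291317104 to 291333678, plus strand, possum assembly mTriVul1.pri), had 1262, 1.58 and 1.95 TPM in black replicates 1, 2 and 3 and 2.56, 1.33 and 1.26 TPM in grey replicates 1, 2 and 3. *ACTA1*, which encodes skeletal muscle actin, the backbone of the thin filament (chromosome 4, 153148026 to 153153344, minus strand), had 844, 0.759 and 2.2 TPM in the black libraries and 1.78, 0.604 and 0.375 TPM in the grey libraries. In both genes the values of black replicates 2 and 3 overlapped with those of the grey libraries.

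*CKM*, which encodes the muscle creatine kinase that regenerates ATP during contraction (chromosome 2, 40131851 to 40145700, plus strand), had 88.0 TPM in black replicate 1 and was listed at 0 in the other 5 libraries. It was the lowest of the 10 genes in black replicate 1, and no fold is given for it because a gene listed at 0 in these files only lacks an assembled transcript. *MB* encodes myoglobin, the oxygen store of red muscle fibres (chromosome 5, 294191278 to 294205571, minus strand). It had 1180, 72.6 and 123 TPM in the black libraries and 77.8, 79.6 and 70.5 TPM in the grey libraries, and so stood apart from the other 9 genes, whose highest value outside black replicate 1 was the 2.56 TPM of *MYL1*.

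Among the fast fibre troponins, *TNNT3* (troponin T, chromosome 6, 282714669 to 282737939, minus strand) had 99.6, 0.555 and 1.08 TPM in the black libraries and 0.515, 0 and 0.253 TPM in the grey libraries. *TNNI2* (troponin I, chromosome 6, 282829182 to 282835663, minus strand) had 311, 0.359 and 0.768 TPM in the black libraries and 0, 0 and 0.315 TPM in the grey libraries. These were the only 2 of the 10 genes in which every black library lay above every grey library, an arrangement found in 4.07% of all genes tested, and their lowest black values of 0.555 and 0.359 TPM were close to their highest grey values of 0.515 and 0.315 TPM. *TNNC2* (troponin C, chromosome 3, 157488922 to 157493331, minus strand) had 407, 0.609 and 0 TPM in the black libraries and 0, 0.243 and 0.742 TPM in the grey libraries, so the highest value outside black replicate 1 was grey.

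The slow fibre troponins gave the same arrangement. *TNNT1* (troponin T, chromosome 2, 9530880 to 9544503, plus strand) had 723, 0.868 and 1.14 TPM in the black libraries and 2.12, 1.79 and 0.941 TPM in the grey libraries. *TNNI1* (troponin I, chromosome 4, 101786774 to 101798917, minus strand) had 548, 0.470 and 0.578 TPM in the black libraries and 0, 1.08 and 0.557 TPM in the grey libraries. *TNNC1*, which encodes the troponin C shared by slow fibres and the heart (chromosome 9, 123266377 to 123272867, minus strand), had 326, 0.294 and 1.27 TPM in the black libraries and 0, 0.483 and 0 TPM in the grey libraries. For *TNNT1* the grey libraries held the 2 highest of the 5 remaining values.

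**Figure D1:**
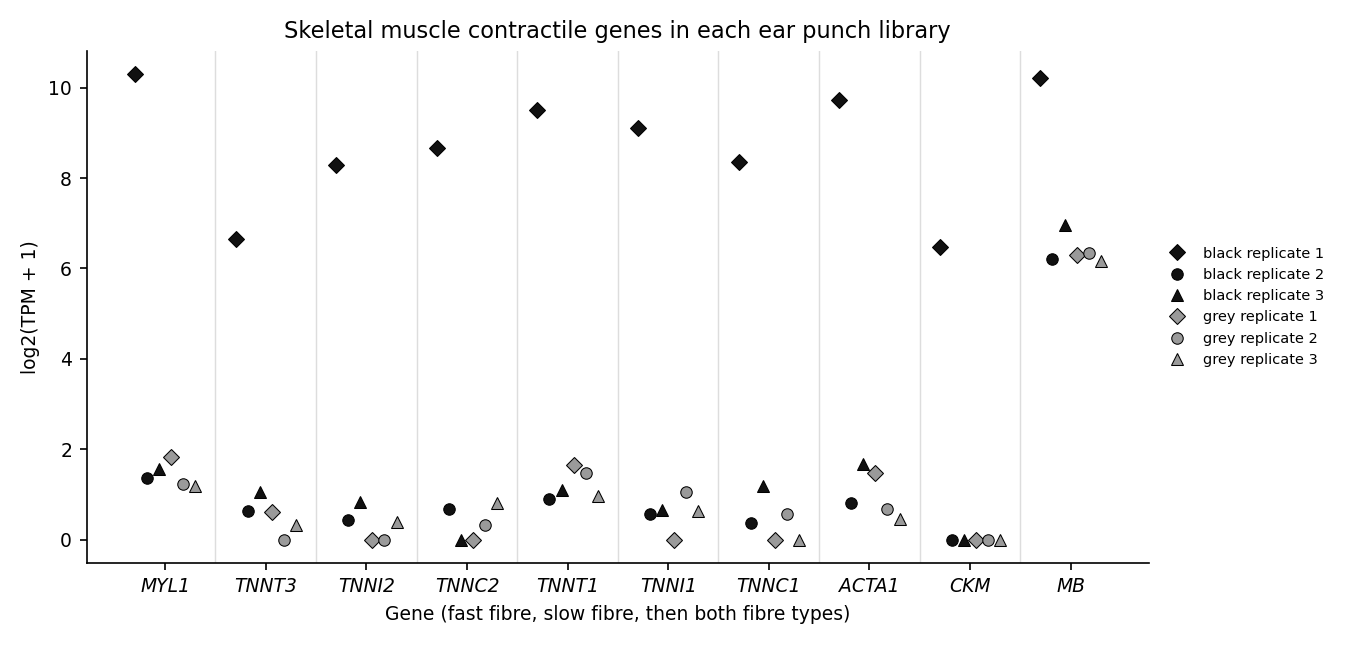
Level of each of the 10 genes, as log2(TPM + 1), in the 3 black and 3 grey libraries, with 1 symbol per library. The diamond of black replicate 1 stands far above the other 5 symbols for every gene, and MB is the only gene whose other symbols are not near 0.

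Leaving *MB* aside, the other 9 genes summed to 4608, 5.49 and 8.99 TPM in the black libraries and to 6.98, 5.53 and 4.44 TPM in the grey libraries. The 5 libraries that followed black replicate 1 thus held between 0.0964% and 0.195% of its sum, and their own order was not one of coat colour. For the 8 genes with a value outside black replicate 1, the level there was 91.9 to 548 times that of the next highest library (median 394 times), with *TNNT3* the lowest and *TNNC2* the highest of these folds. For *MB* it was 9.61 times.

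The trace outside black replicate 1 was small in reads. Coverage divided by read length gave a summed equivalent of 173280 reads for the 9 genes in black replicate 1, of 146 and 125 reads in black replicates 2 and 3, and of 40.7, 118.5 and 134 reads in the grey libraries. An assembled transcript was present for 10, 9 and 8 of the 10 genes in the black libraries and for 5, 7 and 8 in the grey libraries, and the lowest of these numbers belonged to the shallowest library, grey replicate 1. Single values near 1 TPM therefore rest on few reads, for example 11.8 read equivalents behind the 0.768 TPM of *TNNI2* in black replicate 3, and differences between such values were not detectable at this depth.

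The reads outside black replicate 1 were spliced like those within it. The assembled transcripts of the 9 genes held 81 different introns in black replicate 1 and 52 in the other 5 libraries together, of which 51 had the same boundaries as an intron of black replicate 1 (98.1% of the 52, and 63.0% of the 81). The exception was an intron of *MYL1*, and *CKM* contributed 0 introns outside black replicate 1. Shared introns cannot show that this RNA was made in the other punches, because reads placed in the wrong library would share them too. The origin of the trace was not tested.

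Myoglobin differed from the other members in which transcripts carried its reads. In black replicate 1, 878 TPM of *MB* (74.4%) belonged to a transcript whose first exon lay inside the gene's RefSeq span, from 294205232 to 294205462 on chromosome 5, and 0 TPM of this form was assembled in any of the other 5 libraries. In those libraries all *MB* transcripts began at a first exon further upstream, beyond the RefSeq span, whose inner end lay at 294220825. This upstream form had 269, 72.6 and 123 TPM in the black libraries and 77.8, 79.6 and 70.5 TPM in the grey libraries.

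The share that the assembly gave to each form of *MB* in black replicate 1 depends on how reads of the common exons were divided between transcripts, so the upstream first exon was also read directly. Its coverage per aligned Gb was 21.9, 27.3 and 42.5 in the black libraries and 24.6, 32.6 and 28.7 in the grey libraries. By this measure black replicate 1 was the lowest of the 6 libraries, although it was the highest by the TPM of the upstream form. The downstream first exon had a coverage of 72.8 per aligned Gb in black replicate 1, and a further first exon with 33.1 TPM was assembled in that library only. The downstream first exon contains an inner exon of the upstream form, so its coverage also depends on how reads were divided. The next exon of *MB* had 975 per aligned Gb in black replicate 1 and 38.3 to 72.4 elsewhere. The first exons of black replicate 1 were thus thinly covered beside it. The coverage of the upstream first exon overlapped between black and grey skin.

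**Figure D2:**
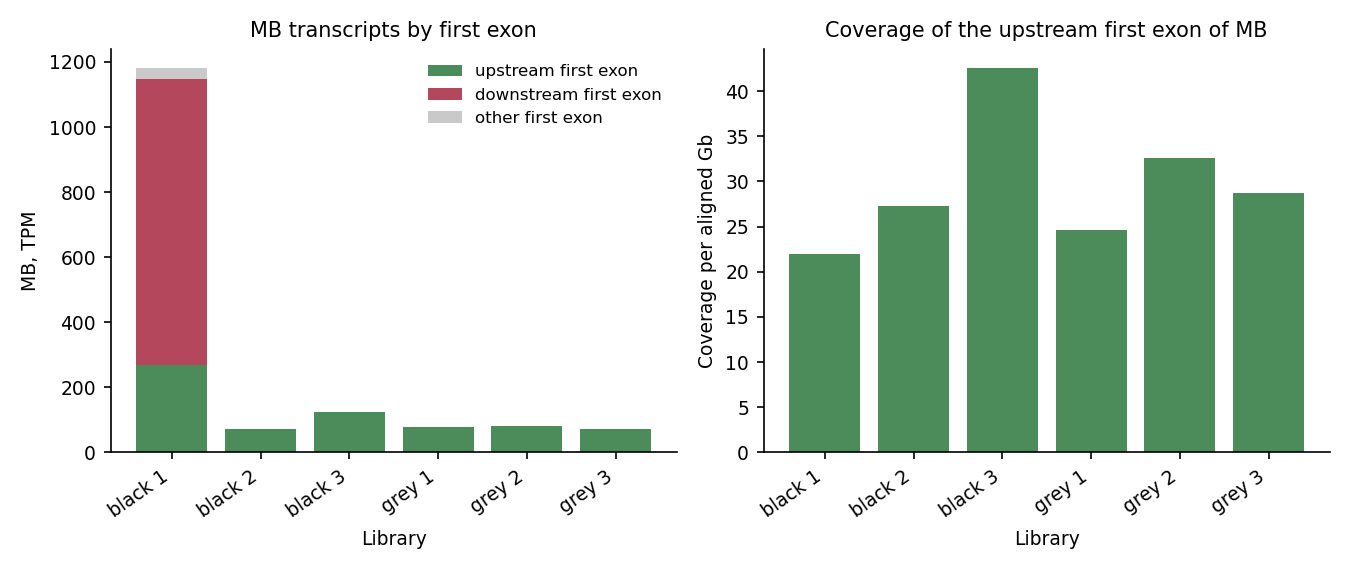
Left, TPM of MB in each library divided by the first exon of the assembled transcripts; right, coverage of the upstream first exon per aligned gigabase (Gb). The downstream form is drawn in black replicate 1 only, with 878 TPM, while coverage of the upstream first exon runs from 21.9 to 42.5 and is lowest in black replicate 1.

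*MYL1* also had alternative first exons, an arrangement known from eutherian mammals, in which the gene gives a longer and a shorter fast light chain from separate promoters. Of the *MYL1* signal in black replicate 1, 555 TPM (44.0%) began at the upstream first exon, from 291302925 to 291303137 on chromosome 4 and outside the RefSeq span. This form skipped the downstream first exon and the exon of 25 nucleotides after it. It held an exon of 28 nucleotides, from 291318261 to 291318288, ahead of the common part. The other 707 TPM (56.0%) began at the downstream first exon, from 291317094 to 291317145. The downstream first exon was only 52 nucleotides long, shorter than a read, and its coverage per aligned Gb was 21.0 against 97.6 for the upstream first exon, so the balance of the forms differs between these measures. The exon of 25 nucleotides, used by the downstream form, had 143 per aligned Gb. The exon of 28 nucleotides, used mostly by the upstream form, had 157, so these values lay closer together. Outside black replicate 1, the upstream first exon was assembled in black replicate 3 (1.03 TPM) and grey replicate 3 (0.435 TPM) and the downstream first exon in black replicate 2 (0.822 TPM), and all other *MYL1* transcripts lacked both.

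Within black replicate 1, slow troponin transcripts outnumbered fast ones in sum but not in every pair. TPM is scaled to length, so levels can be compared between these genes, but 1 library from 1 possum gives no replicate error for any of the ratios. The fast gene took 12.1% of the pair for troponin T (99.6 TPM of *TNNT3* beside 723 TPM of *TNNT1*), 36.2% for troponin I (311 TPM of *TNNI2* beside 548 TPM of *TNNI1*) and 55.5% for troponin C (407 TPM of *TNNC2* beside 326 TPM of *TNNC1*). Over the 3 pairs the fast genes summed to 818 TPM and the slow genes to 1596 TPM, a fast share of 33.9%.

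The low share of *TNNT3* depended on the assembly. Its transcripts in black replicate 1 were 3659 and 3913 nucleotides long, and 1 of their first exons spanned 2858 nucleotides at a coverage of 1.19 per aligned Gb, whereas the exons of 36 nucleotides or more that followed it had between 54.3 and 220. Long, thinly covered sequence of this kind lowers a value that is divided by length. When bases of coverage were compared without division by length, the fast share was 34.3% for troponin T, 34.4% for troponin I and 42.1% for troponin C, and when the median coverage of inner exons was used it was 32.4%, 18.0% and 64.4%.

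The slow gene was thus higher for troponin T and troponin I under all 3 measures, while troponin C turned with the measure. The summed fast share stayed between 33.9% and 37.2%. When a chosen set of myosin light and heavy chains was added to the troponins, the fast share was 56.8%. The 1262 TPM of *MYL1* and the 279 TPM of *MYLPF* then entered on the fast side. On the slow side, only the 159 TPM of *MYL3* and the 39.4 TPM of *MYH7B* entered. Myosin chains with a symbol that were not in the set included *MYL4* (140 TPM), *MYL10* (124 TPM), *MYL6B* (115 TPM) and *MYH6* (98.04 TPM). *MYL2* and *MYH7*, the slow counterparts of *MYLPF* and of the fast heavy chains, have no symbol in the gene table used here. The fast heavy chains have none either, so this share lacks major genes on both sides. Transcripts of fast and of slow fibre genes were both present in the RNA of this punch. Bulk RNA cannot show whether separate fibres made them, and this was not tested. Other fast and slow genes measured here can also be set in pairs, and these did not all lean the same way. The fast gene was higher for *MYL1* (1262 TPM) beside *MYL3* (159 TPM) and for *CASQ1* (40.4 TPM) beside *CASQ2* (34.7 TPM). The slow gene was higher for *MYOZ2* (105 TPM) beside *MYOZ1* (70.0 TPM).

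**Figure D3:**
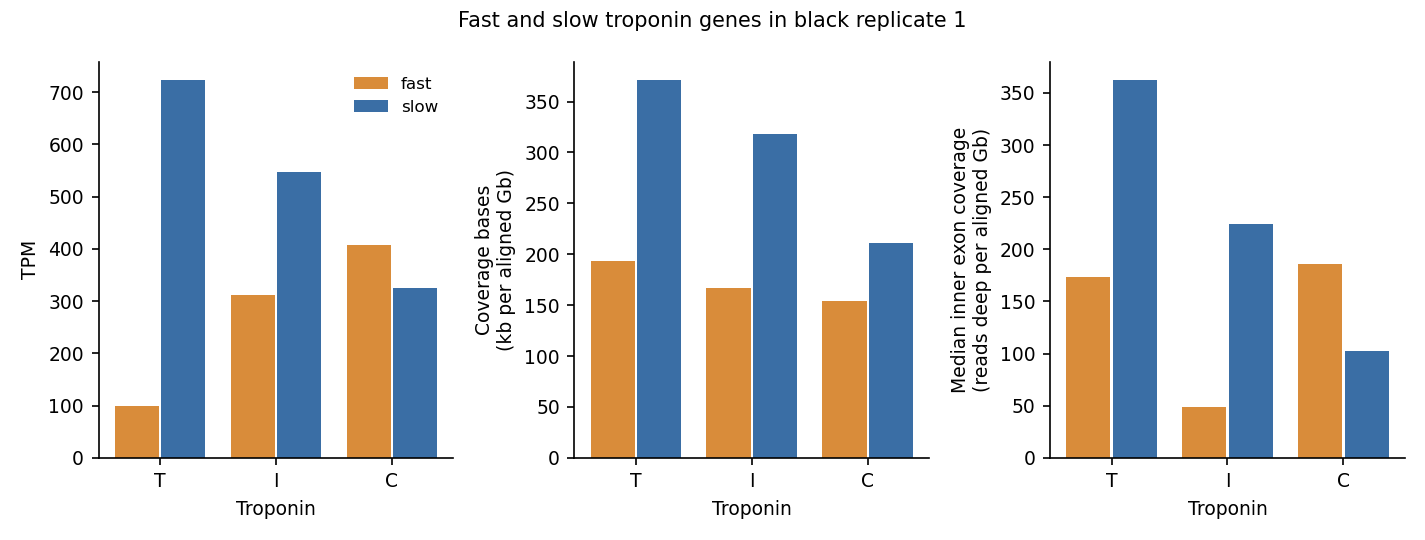
Fast (orange) and slow (blue) genes of troponin T, I and C in black replicate 1 by TPM, by bases of coverage (kilobases per aligned gigabase) and by median coverage of inner exons per aligned gigabase, each from 1 library and so without error bars. The slow bar is the higher one for troponin T and I in all 3 panels, and troponin C changes order between them.

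The other genes known from skeletal muscle were taken from 8 lists of contractile, membrane, metabolic and regulatory genes, chosen with earlier results of these data known. Of 95 genes listed, 78 had a transcript under their symbol and 72 had a mean of at least 1 TPM, 29 of them only through black replicate 1. Black replicate 1 held the highest value for 73 of the 78 genes, where 21.6% of all genes with a transcript were highest there. In the 43 genes whose mean over the other 5 libraries reached 1 TPM, a filter that does not use black replicate 1 and was added after seeing the data, 39 were highest in it, as were 20.8% of all 15475 genes that passed this filter. Besides *MYMK*, which was below the minimum mean, the exceptions were *CHRNE*, a subunit of the acetylcholine receptor, *AMPD1* and *PHKG1*, enzymes of purine and glycogen metabolism, and *LDHA*, a lactate dehydrogenase that skin cells also use, which had 309, 302 and 323 TPM in the black libraries and 218, 246 and 337 TPM in the grey libraries.

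Further fast and slow fibre genes followed the 10 members in black replicate 1. *MYLPF*, the regulatory light chain of fast myosin, had 279 TPM there and 1.21 to 2.24 TPM in the other libraries, *ATP2A1*, the calcium pump of fast fibres, had 123 TPM and 2.19 to 5.16 TPM elsewhere, and *PGAM2*, the muscle phosphoglycerate mutase, had 99.4 TPM and was listed at 0 elsewhere. On the slow side, *CSRP3*, a Z disc protein, had 436 TPM and 0.575 to 1.05 TPM elsewhere, *MYL3*, the light chain of slow myosin, had 159 TPM and 0 to 0.714 TPM elsewhere, and *MYBPC1*, a myosin-binding protein of slow fibres, had 134 TPM and 0 to 0.960 TPM elsewhere. The 9 fast genes and the 8 slow genes measured in these lists were all highest in black replicate 1.

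Structural, membrane and regulatory genes of the fibre were present as well. *TTN*, the giant spring of the sarcomere, had 59.2 TPM and *TRDN*, a partner of the calcium release channel, 59.6 TPM in black replicate 1, and both were listed at 0 in the other 5 libraries. *ACTN2*, which crosslinks actin at the Z disc, had 124 TPM and 1.83 to 4.10 TPM elsewhere, and *ENO3*, the muscle enolase, had 401 TPM and 11.99 to 19.7 TPM elsewhere. The myogenic transcription factors were low but were assembled in black replicate 1 alone, with 13.2 TPM of *MYOG*, 8.16 TPM of *MYF6*, 7.09 TPM of *MYOD1* and 2.70 TPM of *MYF5*.

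Several muscle genes had a level in every skin library. *TPM2*, a tropomyosin that smooth muscle and fibroblasts also express, had 439, 99.6 and 119 TPM in the black libraries and 61.0, 199 and 52.4 TPM in the grey libraries, and *ACTC1*, the actin of heart and developing muscle, had 123, 16.2 and 18.9 TPM in the black libraries and 10.1, 51.3 and 38.3 TPM in the grey libraries. *RYR1*, the calcium release channel, had 17.4, 13.8 and 11.5 TPM in the black libraries and 12.01, 10.8 and 9.35 TPM in the grey libraries. These levels overlapped between colours once black replicate 1 was set aside, for *TPM2* and *ACTC1* with grey replicate 2 as the highest library.

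Of 6 genes listed for the heart, the 3 with a transcript were also highest in black replicate 1, with a sum of 169 TPM there and of 6.06 to 10.1 TPM in the other libraries. *MYL7*, *NPPA* and *NPPB*, which heart muscle expresses, had no transcript in any library. *TNNI3*, the heart troponin I, had 11.7 TPM in black replicate 1 and 2.07 to 5.06 TPM elsewhere, and *TNNT2*, the heart troponin T that developing skeletal muscle also uses, had 59.5 TPM and 2.64 to 5.37 TPM elsewhere. *MYH6*, a myosin heavy chain of the heart and of some specialised fibres, had 98.04 TPM in black replicate 1 and 0 to 1.14 TPM elsewhere. Its neighbour on chromosome 8, *LOC118859071*, had 132 TPM and 0.529 to 1.82 TPM elsewhere, and because myosin heavy chain genes are near copies of each other the values of such genes are uncertain. The other sarcomeric myosin heavy chains have no symbol in the gene table used here, apart from *MYH7B* with 39.4 TPM in black replicate 1 and 0 to 0.279 TPM elsewhere, so fibre type could not be read from them.

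Other cell types of the punch gave sums inside or near the range of the remaining libraries. The sums cover only genes with a symbol in the gene table used here. For keratinocytes these were 7 of the 14 genes listed, with no keratin among them. The sum of the keratinocyte list was 1614 TPM in black replicate 1 and 1280 to 2341 TPM in the others, that of the fibroblast list 3263 TPM and 1172 to 4170 TPM, that of the smooth muscle list 1542 TPM and 795 to 2095 TPM, and that of the nerve and Schwann cell list 382 TPM and 211 to 688 TPM. The endothelial sum was the highest of the series in black replicate 1, at 321 TPM beside 217 to 315 TPM, and the cartilage sum was the lowest, at 333 TPM beside 401 to 969 TPM. The smooth muscle list included *DES*, the intermediate filament desmin of all muscle, which had 605 TPM in black replicate 1 and 1.70 to 3.16 TPM elsewhere, whereas *ACTA2*, the smooth muscle actin, had 278 TPM in black replicate 1 and 154 to 432 TPM elsewhere. The part of these cell types in the result was not tested, and in bulk tissue fewer cells of a type and less RNA per cell cannot be told apart.

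A library that differs in this way can be set beside the same count in every other library. Black replicate 1 held 91 genes at least 10 times higher than in any other library on the TPM + 1 scale (0.504% of the 18039 genes), and the corresponding number was 6 and 10 in black replicates 2 and 3 and 16, 6 and 13 in the grey libraries. The muscle lists contributed 44 of the 91 genes, 9 of them members of the 10, with *MB* the member below the limit, and 0 genes of the other libraries. The genes so counted summed to 12963, 719 and 726 TPM in the black libraries and to 39395, 486 and 6687 TPM in the grey libraries, so by summed level, unlike by number, grey replicate 1 was the highest.

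**Figure D4:**
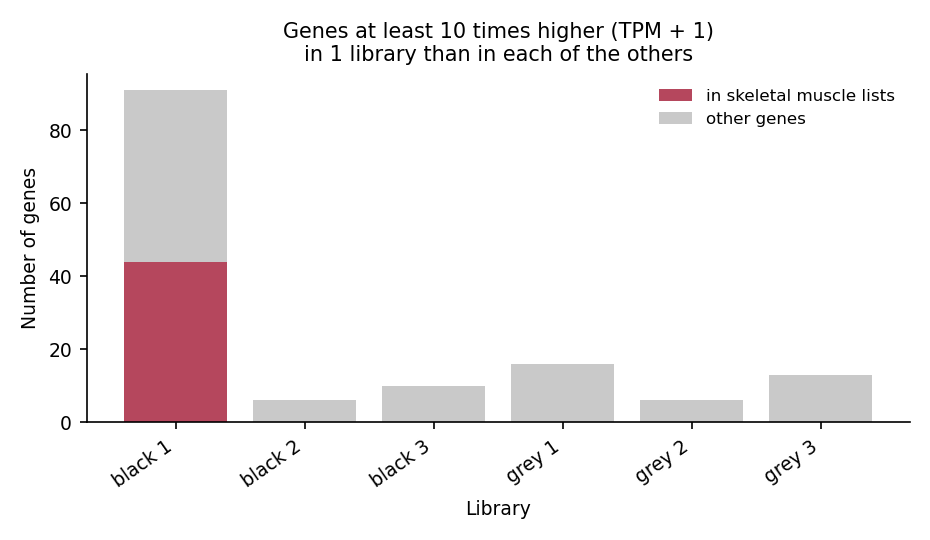
Number of genes at least 10 times higher in 1 library than in each of the other 5, on the TPM + 1 scale, with genes of the skeletal muscle lists in red. The bar of black replicate 1 reaches 91 genes, 44 of them in the muscle lists, and the other bars reach 6 to 16 with 0 in the lists.

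Outside all lists, the 10 genes with a symbol that exceeded the next library most in black replicate 1 were *SLC25A4*, *EEF1A2*, *MYL10*, *MYL6B*, *CFAP299*, *SMTNL1*, *SLN*, *ADPRHL1*, *HSPB2* and *ANKRD1*. *SLC25A4*, the ADP/ATP carrier of heart and skeletal muscle mitochondria, had 393 TPM and 1.57 to 2.39 TPM elsewhere, *EEF1A2*, the translation elongation factor of muscle and neurons, had 191 TPM and 0.276 to 2.00 TPM elsewhere, and *ANKRD1*, a stress-responsive protein of striated muscle, had 189 TPM and 2.2 to 4.25 TPM elsewhere. *MYL6B* and *MYL10*, a pair of further myosin light chains, had 115 TPM and 124 TPM, and *SLN*, sarcolipin, an inhibitor of the calcium pump, had 80.8 TPM. *ADPRHL1* had 86.0 TPM, *HSPB2*, a small heat shock protein, 74.8 TPM, *CFAP299*, named for cilia and flagella, 40.5 TPM and *SMTNL1* 38.4 TPM, the last pair listed at 0 in the other libraries. *LOC118848135*, a gene without a symbol that was chosen after its values were seen, had 704 TPM and 1.64 to 3.65 TPM elsewhere, more than all but 4 of the 10 members.

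Over the 6 libraries, 34 genes shared the highest correlation with the mean of the 10 members, because every gene at 0 in the other 5 libraries has the same value whatever its level in black replicate 1. Of these, 14 were in the muscle lists, among them *CKM*, and 12 had a symbol and were in no list. Those 12 included *ABRA*, *CFAP299*, *CAV3*, *CMYA5*, *FITM1*, *FNDC5*, *CA14*, *LRRC14B*, *RBM24* and *RPL3L*, each with a Pearson correlation of 0.999 on log2(TPM + 1), and no order can be given among them. *CAV3* encodes the caveolin of muscle and *FITM1* a lipid droplet protein of muscle, whereas *CFAP299* is the cilia gene given above. These 10 lay between 7.15 TPM (*RBM24*) and 40.5 TPM (*CFAP299*) in black replicate 1, and the correlation over 6 libraries rests on that library alone. A correlation of at least 0.99 was reached by 79 of 15573 genes (0.507%), among them all 10 members, from which the mean was made, and 28 of the 72 other muscle genes.

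Skeletal muscle transcripts took a small part of black replicate 1 and a much smaller part of the other libraries. The 10 members made up 0.580% of its TPM, beside 0.00781% and 0.0132% in black replicates 2 and 3 and 0.00848%, 0.00852% and 0.00750% in the grey libraries. All muscle lists together made up 1.07%, 0.0660% and 0.0800% of TPM in the black libraries and 0.0565%, 0.0772% and 0.0652% in the grey libraries. Rescaling each library to its TPM outside these lists moved the values of black replicate 1 by 0.02 on the log2 scale and the other libraries by 0.000816 to 0.00115.

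How these transcripts entered the comparison of coat colours was followed with limma on log2(TPM + 1) across 15573 genes. The black minus grey difference of the 10 members ran from 1.52 (*MB*) to 3.20 (*ACTA1*), with a median of 2.81, where the median of all genes tested was 0.04. Without black replicate 1 it ran from -0.36 (*TNNT1*) to 0.59 (*TNNC1*) with a median of 0.18, and 7 of the 10 differences were above 0, as were 53.2% of all genes tested. The standard deviation within a colour had a median of 3.28 for the members and of 0.33 for all genes. Among the 5 possums other than black replicate 1, black and grey values overlapped for 7 of the 10 genes, *CKM* was at 0 throughout, and *TNNT3* and *TNNI2* were separated by the small gaps given above.

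At an adjusted p of 0.05 limma called 3 of 15573 genes (0.0193%), 2 of them higher in black skin (0.0128%), and 0 of the 10 members were among them. The higher genes were *FAHD1*, a mitochondrial enzyme, and *SOX15*, a transcription factor, both listed at 0 in each grey library, and the lower gene was *LOC118852226*. Of the 72 other muscle genes, 0 were called by limma, 1 had an unadjusted p below 0.05, as did 2.27% of all genes tested. The median difference of the 78 genes with a transcript, whether or not they passed the minimum, was 1.15, and 0 without black replicate 1. Of these 78 genes, 16 had no transcript in the other 5 libraries, so their difference without black replicate 1 could only be 0. The median difference over all 6 libraries of the 43 genes that passed without the help of black replicate 1 was 0.90.

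In 4 of the 72 genes, as in 4.07% of all genes tested, every black library lay above every grey library. They included *MYOZ2*, a Z disc protein of slow fibres, which had 105, 2.09 and 1.74 TPM in the black libraries and 0.864, 1.11 and 0.834 TPM in the grey libraries, and *FABP3*, the fatty acid-binding protein of heart and red muscle, which had 27.7, 6.90 and 10.4 TPM in the black libraries and 5.75, 5.28 and 5.63 TPM in the grey libraries. For both genes the other black values were much closer to the grey values than to black replicate 1.

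Genes ranked by the size of the difference, without regard to its error, were affected more. A log2 difference of at least 1 in favour of black skin was found for 356 genes (2.29%), made up of 57 of the 82 muscle genes tested (69.5%) and 299 of the 15491 other genes (1.93%). Without black replicate 1, 1 of those 57 muscle genes still reached 1, and 26 lay at 0 or below, whereas 204 of the 299 other genes still reached 1. Those 26 include 14 genes without a transcript in the other 5 libraries, whose difference without black replicate 1 could only be 0. Among the 100 genes with the largest differences, 27 were muscle genes, 9 of them members, and when the ranking was repeated without black replicate 1, 1 muscle gene was left among the first 100. The muscle genes in these counts include the 10 members and 35 genes, 6 of them members, that reached the minimum only through black replicate 1. With the minimum set on the other 5 libraries, a difference of at least 1 was found for 19 of 43 other muscle genes (44.2%) and for 252 of 15428 genes outside the muscle lists (1.63%). The sign of the difference turned in 25 of the 82 muscle genes (30.5%) and in 18.7% of the other genes.

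**Figure D5:**
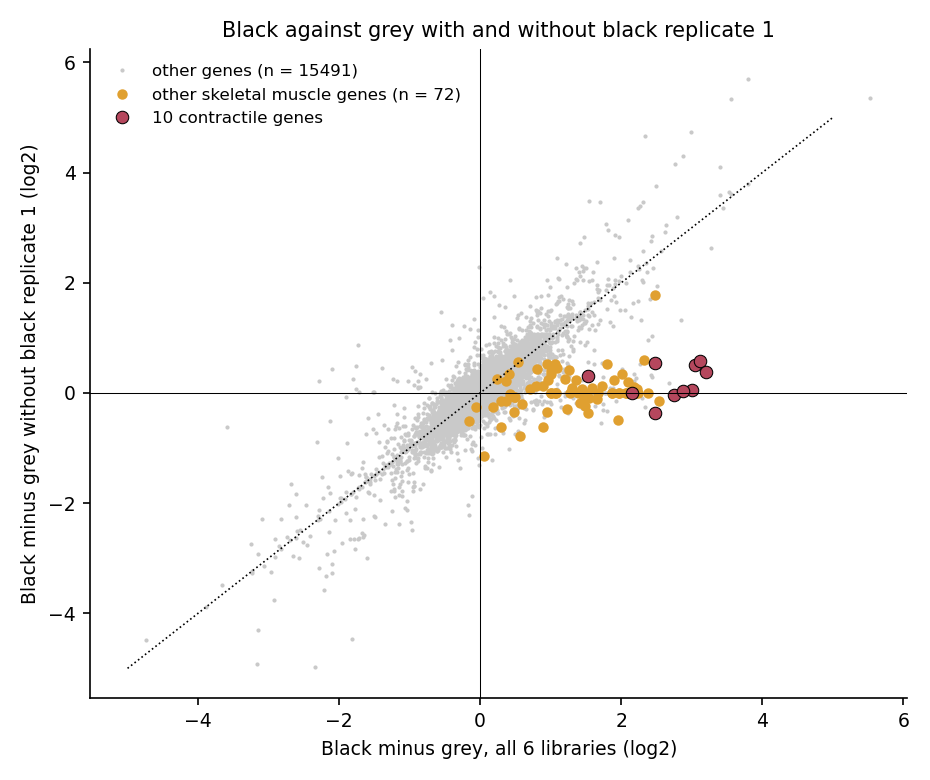
Difference of mean log2(TPM + 1), black minus grey, for each gene tested with all 6 libraries (horizontal axis) and without black replicate 1 (vertical axis); the dotted line marks equal values. The 10 contractile genes lie between 1.52 and 3.20 on the horizontal axis and between -0.36 and 0.59 on the vertical axis, and most of the other muscle genes lie along the horizontal axis as well.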

How the data were processed

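Ear punch skin of 3 black and 3 grey adult female possums was sequenced as single-end reads. Per the submitters' processing notes and the paper's methods, the authors used Trim Galore (version 0.6.10) for trimming, HISAT2 (version 2.2.1) for mapping and StringTie (version 2.2.0) for assembly of each library, and discarded contaminating amplicon reads. The deposited attributes of each transcript are coverage, FPKM and TPM, all of them normalised, and count models were therefore not applied. The TPM that the authors deposited summed to 998685 to 999357 per library. The other deposited values were coverage per exon.

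Aligned bases were derived from the ratio of coverage to FPKM. RefSeq (mTriVul1.pri) gave gene spans without strand or exons, so both were inferred from assembled transcripts that matched a span (0.5 or more of the joint span shared, or 80% inside). Transcripts were then assigned by exon overlap on the same strand, and of 274079 transcripts 232004 were assigned to 18039 genes. No transcript of the 10 members carried a reference gene name. TPM was summed per gene, with 0 where no transcript was assembled.

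Black and grey were compared with limma (version 3.58.1, R version 4.3.3) on log2(TPM + 1) in genes whose mean reached 1 TPM, with p-values adjusted over all of them (Benjamini-Hochberg). Fold changes on this scale understate those of low genes. Python (version 3.11.15) was used for all other steps. The fit was tested on simulated data. The members, the lists and the rule for named genes (the members, the highest 3 genes of each list, and genes outside the lists by excess or correlation, of which some are printed) were chosen with earlier results of these data known. *LOC118848135*, *LOC118859071* and single exceptions to a count were named after their values were seen. As alternatives, the pseudocount, the filter, the scaling and the variance model were changed, a replicate block was fitted, coverage or multi-exon transcripts were used and each replicate was left out. The median coverage of inner exons, the mean of 1 TPM for genes high in a single library, the filter on the 5 libraries other than black replicate 1 and leaving out replicate 1 of both colours were added after seeing the data. Promoter and protein sequences were not analysed here. Values of 1 muscle gene are not reported here.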

Additional observations from a re-analysis of the deposited data

How the results depend on the processing

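The difference of the 10 members was above 0 in every gene under all settings that kept black replicate 1, and in 7 of 10 without it. The genes were selected on their high level in that library, so the sign with it kept was set by the selection. Leaving out 1 library at a time gave a median of 0.18 (without black replicate 1) to 4.20, and for the 78 other muscle genes, whose median was 1.15 over all that were measured, 0 to 1.68, with 0 genes called in each case. The number of genes called was 3, and 0 to 3 when libraries were left out in turn, 1 with a mean of at least 5 TPM, 0 without replicate 1 of both colours (added after seeing the data) and 0 with a replicate block. The labels do not say whether the replicate numbers pair the possums. Deviations from the colour mean had correlations of -0.03, 0.02 and -0.06 between same-numbered libraries, which cannot show whether such possums shared a batch. The fast share of the troponins, 33.9%, was 36.3% from coverage, 37.2% from inner exons (added after seeing the data) and 56.8% with the chosen light and heavy chains. The muscle share of black replicate 1, 1.07%, was 1.20% from coverage and 0.00217% when transcripts had to carry a reference gene name, a rule that leaves no troponin transcript and so gives no fast share. The 91 genes high in black replicate 1 alone were 168 at 4 times and 197 with a pseudocount of 0.1 TPM, where the corresponding numbers of the other libraries were 13 to 47 and 19 to 68. The cause of these shifts was not tested. A single library holds the muscle signal, so its fast and slow ratios have no replicate error, and levels near 1 TPM rest on few reads.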
